A study of Mus musculus with 24 samples.

Results

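The cytosolic ribosomal protein genes are the nuclear genes that encode the proteins of the cytoplasmic ribosome. They were taken here as the protein-coding Ensembl entries whose mouse symbol is Rpl or Rps followed by a number, with an optional a, x, l or y, together with Rplp0, Rplp1, Rplp2 and Rpsa. Pseudogene copies and the S6 kinases, whose symbols begin with Rps6k, were not taken. Of 80 such genes in the annotation, 79 were in all 24 count tables, and 77 of them had at least 10 counts in at least 3 libraries, out of 17915 entries at that level and 37621 in all. The 77 members comprised 46 of the large subunit (Rpl) and 31 of the small subunit (Rps). Rpl39l had 4 counts in all libraries together and Rpl10l had none, so neither was kept, and the identifier of Rpl24 was not matched to the tables.

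Each ribosome holds a single copy of most of these proteins, and the genes are transcribed at high rates in most tissues. Their mRNAs begin with a run of pyrimidines, the 5′ terminal oligopyrimidine (TOP) motif, through which mTOR signalling sets their translation. In neurons, which make protein in dendrites and axons as well as in the soma, ribosomal protein mRNAs are among the abundant localised transcripts. Nearly every member also has processed pseudogenes, copies of its mRNA sequence inserted elsewhere in the genome.

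The libraries came from dissected cerebellum, cortex, hippocampus and olfactory bulb of C57BL/6 mice, either Cdr1as knockout or wild type, with 3 libraries per region and genotype. Cdr1as is a circular RNA of neurons that binds the microRNA miR-7. Total RNA was sequenced after ribosomal RNA had been depleted. The labels give neither age nor sex, and do not say how the replicates were taken, from separate mice or not, so the p-values below rest on library-to-library spread that may be technical. Cdr1as lay at 364 to 4276 CPM (read counts scaled to a common library size) in the wild-type libraries and at 0 to 0.66 CPM in the knockout libraries. Summed markers of each region were higher in all 6 libraries of that region than in any other library, for example 5741 to 6290 CPM against 201 to 406 CPM for the 13 cerebellum markers. Gene counts came to 5.18 to 30.46 M (M, mega) per library. Reads in no annotated feature, which can come from introns and unannotated sequence, came to 20.3% to 62.9% of a table, and reads without a unique alignment to 8.78% to 21.4%. Hippocampus wild type 1 stood apart with 21.4% of reads not uniquely aligned, and cerebellum knockout 1, olfactory bulb wild type 1 and olfactory bulb knockout 2 were of low complexity, with under 8 M gene counts and under 17000 detected genes.

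The first bases of the transcript are shown for members at both ends of the difference between cerebellum and the other regions, and for stalk proteins, because the start carries the TOP motif. Each window of 30 bases runs 5′ to 3′ on the gene's strand, with 15 bases before the annotated RefSeq start (GRCm38.p6). Capitals mark the longest unbroken run of C or T that reaches within 5 bases of that start on either side, read on the gene's strand only. A run can lie wholly before the start, as in Rps27l. Among the members with a start window, those with the largest differences were Rps2 (chr17:24720048-24720077, plus strand), Rpl41 (chr10:128549154-128549183, minus), Rps27 (chr3:90213634-90213663, minus), Rps28 (chr17:33824548-33824577, minus) and Rpl12 (chr2:32961697-32961726, plus).
Rps2: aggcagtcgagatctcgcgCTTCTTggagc
Rpl41: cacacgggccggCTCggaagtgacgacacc
Rps27: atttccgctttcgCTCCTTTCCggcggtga
Rps28: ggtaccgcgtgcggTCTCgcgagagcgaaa
Rpl12: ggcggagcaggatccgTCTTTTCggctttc
The members with the smallest differences, chosen after their values were seen, were Rps27l (chr9:66946071-66946100, plus), Rps15a (chr7:118116133-118116162, minus) and Rpl18 (chr7:45718056-45718085, plus).
Rps27l: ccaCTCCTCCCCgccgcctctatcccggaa
Rps15a: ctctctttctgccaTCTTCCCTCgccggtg
Rpl18: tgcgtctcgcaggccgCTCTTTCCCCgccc
The stalk proteins with an entry were Rplp0 (chr5:115559452-115559481, plus) and Rplp2 (chr7:141447636-141447665, plus).
Rplp0: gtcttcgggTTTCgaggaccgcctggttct
Rplp2: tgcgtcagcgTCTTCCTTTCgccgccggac

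A start window was held for 57 members. A run of at least 8 pyrimidines was found in 20 of them (35.1%), against 9.6% of 27025 genes of all kinds with such a window. The median run was 5 bases in the members and 3 in all genes. A run in these letters describes the annotated start and not the start used in these tissues, and Rpl27a, with a run of 20 bases, and Rpl10, with a run of 1 base, were both members. The run of 14 bases of Rpl4 ended 5 bases before its annotated start, so a run counted here is not by itself a TOP motif.

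Much of the members' sequence is shared with other genes. A median of 40.0% of the 50-base words of a member's transcript occurred in no other annotated transcript, and the share was lowest for Rps27, at 1.4%. Of the 77 members, 75 shared at least 1 such word with another gene, with a median of 10 other genes, and Rps2 shared words with 71, all of them pseudogenes. Reads from such stretches can lack a unique alignment, so the counts of most members are uncertain, and the gene's own expression cannot be told apart from that of an identical copy.

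Compared per kilobase of transcript, wild-type levels of the members spanned a wide range. Rps29, a small zinc-binding protein of the small subunit, was highest at 362 CPM per kilobase as the mean of 12 libraries, followed by the stalk protein Rplp1 at 360.3 and the small subunit protein Rps24 at 306. At the low end stood Rpl3l, the striated muscle paralog of Rpl3, at 0.22 CPM per kilobase, and Rps27l, a paralog of Rps27 known as a p53 target, at 12.8. Their parents lay far above them, Rpl3 at 182 and Rps27 at 212 CPM per kilobase. Rps20 followed at 19.4 on a transcript of 3706 bases, but per kilobase of coding sequence its level was 201, which made it 28th of the 77. On that coding scale Rpl41, which encodes the shortest protein of the ribosome, was highest at 1224.

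The order of the members by level per kilobase was much the same in every region. Spearman's rho between regions over the 77 members was 0.951 to 0.982, a description in which all regions share gene length and sequence uniqueness. Rpl3l had 0 to 11 counts in a library and 0 to 0.63 CPM, and it was too low to be tested in the region and genotype comparisons, which therefore cover 76 members.

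The summed level of the 77 members separated cerebellum from the other regions. In wild-type cerebellum the sum was 4685, 4280 and 4680 CPM in replicates 1, 2 and 3. The cortex had 7926, 5999 and 8042 CPM, and the olfactory bulb 6353, 6163 and 6371 CPM. In the hippocampus it was 12710, 7159 and 6539 CPM. No wild-type cerebellum library reached any library of another region, while the ranges of cortex, hippocampus and olfactory bulb overlapped. In the knockout libraries, cerebellum again lay lowest, at 4277, 4372 and 4748 CPM, and the other 9 libraries held 5977 to 8686 CPM.

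**Figure D1:**
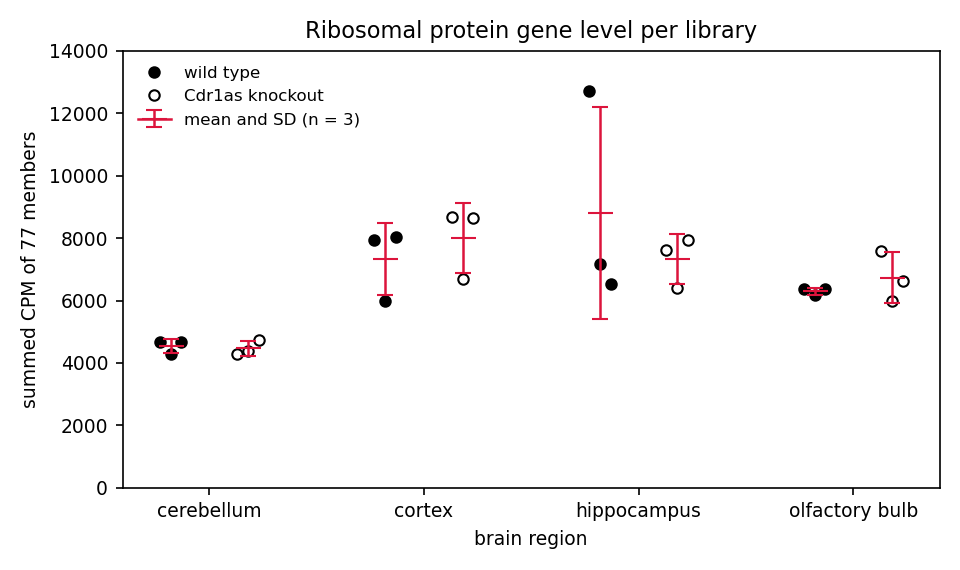
Summed CPM of the 77 members (vertical axis, from 0) in each of the 24 libraries by brain region, with wild type as filled and Cdr1as knockout as open circles, and the mean and SD of each group of 3 as bars. The 6 cerebellum libraries sit between 4277 and 4748 CPM, below all others, and hippocampus wild type 1 stands alone at 12710 CPM.

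Across the 4 regions in wild type, 63 of 76 members differed in edgeR's quasi-likelihood test at an adjusted p under 0.05, against 59.3% of all genes tested. Cerebellum was the lowest region by mean CPM for 76 of 77 members in wild type, and for 76 of 77 in knockout. In the same fit each region was then set against the average of the remaining 3, and these 4 contrasts share the same 12 libraries. Wild-type libraries of the same replicate number may not be independent between regions. Their deviations from the group means correlated across genes at r of 0.298 to 0.361 between cerebellum and cortex. Elsewhere r ran from -0.169 (cerebellum and hippocampus) to 0.432 (cortex and hippocampus). The main fit left the number out. With it as a block 69 members differed, as did 64.7% of all genes.

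Ribosomal protein mRNAs were lower in cerebellum than in the mean of the other regions. At an adjusted p under 0.05, 68 of 76 members were lower and none higher, where 24.1% of all genes were lower and 22.7% higher. Their median log2 difference was -0.67, with a range from -1.30 to -0.19, beside a median of -0.00 over all genes. For 48 members every cerebellum library lay below every other wild-type library, as for 13% of all genes. Both subunits shared the direction, with a median of -0.64 over 45 large subunit members and -0.73 over 31 small subunit members. In bulk tissue, fewer cells of a type and less RNA per cell cannot be told apart, and CPM is a share of a library's gene counts.

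Rps2, which lines the mRNA entry channel of the small subunit, showed the largest difference. It measured 48.7, 43.7 and 47.0 CPM in wild-type cerebellum, against 152, 90.4 and 136 in cortex, 218, 119 and 105 in hippocampus and 73.0, 82.5 and 86.1 in olfactory bulb. All 3 cerebellum libraries were below all 9 others, and the log2 difference was -1.30 with a standard error (SE) of 0.21 (adjusted p = 0.000135, edgeR). Rplp1, an acidic protein of the stalk that recruits elongation factors, measured 88.2, 74.4 and 96.0 CPM in cerebellum and 129 to 404 CPM in the other wild-type libraries. The groups did not overlap and the difference was -1.26 (SE 0.23, adjusted p = 0.000457, edgeR). Rpl41 measured 52.6, 48.1 and 45.9 CPM in cerebellum and 75.9 to 179.9 CPM elsewhere, a difference of -1.10 (SE 0.19). Rps27, a zinc-finger protein of the small subunit, measured 40.4, 36.9 and 44.7 CPM against 61.6 to 151 CPM, a difference of -1.02 (SE 0.18). Rps28 and Rpl12, the latter at the base of the stalk, each had a log2 difference of -0.97 and no overlap.

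Among the other members of known role, the stalk proteins differed in outcome. Rplp2 measured 52.8, 44.0 and 53.9 CPM in cerebellum and 50.1 to 153 CPM elsewhere, where cortex wild type 2 lay within the cerebellum range, and its difference was -0.67 (SE 0.22, adjusted p = 0.0233, edgeR). Rplp0, the protein that anchors both P proteins to the ribosome, measured 92.5, 71.2 and 85.9 CPM in cerebellum and 57.7 to 192 CPM elsewhere. Its lowest wild-type value was in cortex wild type 2 and its difference of -0.43 (SE 0.22) did not pass (adjusted p = 0.130, edgeR). Rpsa, also known as a laminin receptor, had a difference of -0.84 (SE 0.20) and no overlap.

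Of the 8 members that did not pass in cerebellum, Rps27l, Rps15a and Rpl18 had the smallest differences, each -0.19. Rps15a measured 111, 104 and 114 CPM in cerebellum and 106 to 171 CPM elsewhere, so that its groups overlapped. Rps27l measured 5.9, 4.6 and 6.7 CPM in cerebellum and 4.9 to 11.8 CPM elsewhere, a difference of -0.19 (SE 0.25), while its parent Rps27 passed. Rplp0, Rpl27, Rps6 and Rps9 also did not pass, at -0.43 to -0.53. The 20 members with a pyrimidine run of at least 8 bases had a median difference of -0.62, and the 36 with a shorter run one of -0.75. This is a description without a test, and not a split by TOP motif. Rpl10, Rps4x and Rpl39, which are among the X-linked members, all passed, with differences of -0.77, -0.88 and -0.73.

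**Figure D2:**
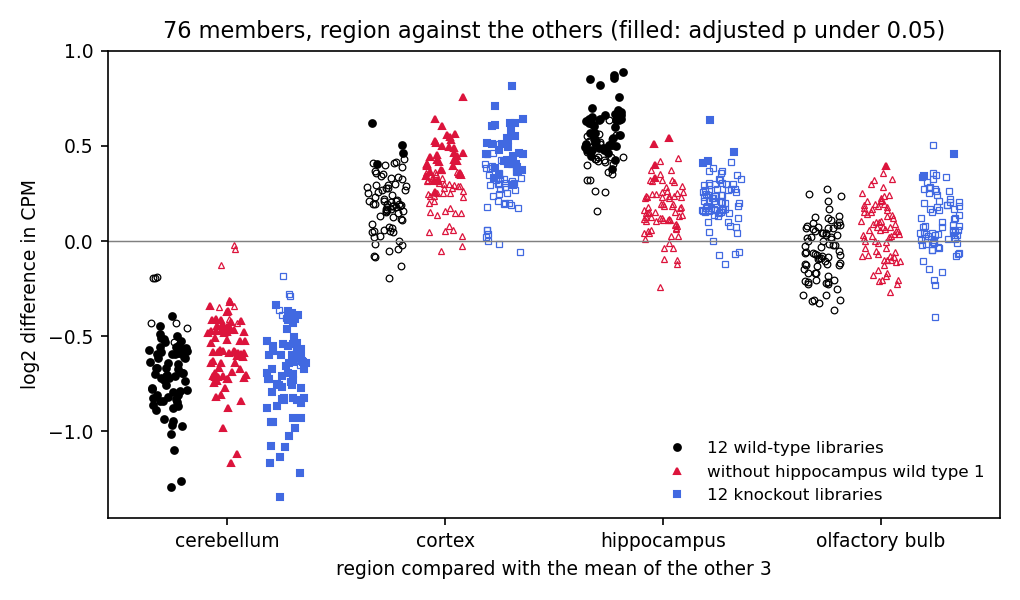
Log2 difference of CPM between each region and the mean of the other 3 (vertical axis) for 76 members, as black circles for the 12 wild-type libraries, red triangles without hippocampus wild type 1 and blue squares for the 12 knockout libraries, with filled symbols at an adjusted p under 0.05. The cerebellum clouds stay below 0 under all 3, whereas the hippocampus cloud drops from a median of 0.52 to 0.17 without that library.

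The 12 knockout libraries, which share no library with the wild-type fit, gave 69 members lower and none higher in cerebellum, with a median of -0.65, where 21.5% of all genes were lower. The calls overlapped in 64 members, 94.1% of the wild-type calls and 92.8% of the knockout calls. The count was smallest, at 38, without cerebellum wild type 2, where 3189 of 17454 genes were lower. Removing that library also lowered the number of members with any difference between regions from 63 to 38, beside 8938 of 17454 genes. With the no-feature share of each library as a covariate, 54 members were lower, as were 24.6% of all genes, with a median of -0.46.

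Cell type markers and related lists differed between the same regions. All 10 microglia markers and all 11 genes of a list named for granule and small neurons were lower in wild-type cerebellum. Their summed levels were 71.3 to 90.2 against 189 to 358 CPM and 156 to 198 against 446 to 1013 CPM. None of these genes was at 0 in a wild-type cerebellum library. In wild-type olfactory bulb 7 of those 11 genes were higher and 0 lower. Choroid plexus and ependymal markers summed to 1920 and 1999 CPM in cerebellum wild type 1 and 2 and to 151 CPM in wild type 3. The ribosomal protein sums of these libraries were 4685, 4280 and 4680 CPM. Oligodendrocyte markers went the other way, with 4 of 9 higher and none lower, while of 9 astrocyte markers 5 were higher and 2 lower, and of 10 neuron markers 4 were higher and 4 lower. The part of cell composition in the difference was not tested. Of 76 genes for proteins of the mitochondrial ribosome, 2 were lower and 6 higher, with a median of -0.03. Of 16 translation factors with TOP mRNAs, 8 were lower and 1 higher, with a median of -0.32. They included the elongation factor gene Eef1a1 at -0.999 (SE 0.13) and the growth-linked Tpt1 at -0.61 (SE 0.13), whereas Eef1d was higher at 0.35 (SE 0.08). Among 20 other translation factors 3 were lower and 2 higher, and of 40 ribosome biogenesis genes 5 were lower and 2 higher, both under the shares of all genes, 24.1% lower and 22.7% higher. Of 8 ribosomal proteins and paralogs outside the symbol rule, Fau (-0.60) and Rps3a1 (-0.60) were lower, and the other 6 did not pass. Of 5 small nucleolar RNA host genes, which also have TOP transcripts, Zfas1 (-0.96), Gas5 (-0.78) and Snhg12 (-0.61) were lower.

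In wild-type hippocampus the members were higher than in the other regions, and this rested on 1 library. At an adjusted p under 0.05 in edgeR, 47 of 76 members were higher and none lower, where 15.3% of all genes were higher and 10.6% lower, with a median log2 difference of 0.52. For no member did all 3 hippocampus libraries lie above all others, as they did for 4.18% of all genes. Hippocampus wild type 1 was the highest of all 24 libraries for 73 of 77 members. Without it, 4 members were higher, against 10.9% of all genes, and the median was 0.17. Those were Rps2 (0.51, SE 0.15), Rpl37 (0.54, SE 0.11), Rpl4 (0.33, SE 0.10) and Rpl27a (0.40, SE 0.13). In the knockout libraries 4 of 76 were higher, where 12.1% of all genes were, with a median of 0.21, namely Rps2, Rplp1, Rpl3 and Rpl4. The count also depended on libraries of other regions. It was 30 without cerebellum wild type 2, beside 2256 of 17454 genes, and 31 without olfactory bulb wild type 2, beside 2343 of 17298 genes.

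Rpl37, a zinc-binding protein of the large subunit, was the member with the smallest p in this contrast. It measured 172, 106 and 84.5 CPM in hippocampus wild type, with the first value above every other library of the series, against 77.9 to 99.1 CPM in cortex. The difference was 0.87 (SE 0.15, adjusted p = 0.000609, edgeR) with all libraries. Rplp1 measured 404, 189.7 and 201 CPM in hippocampus and was higher by 0.86 (SE 0.20), but by 0.44 (SE 0.17, adjusted p = 0.113, edgeR) without the first replicate. In the same library the members took 1.19% of the gene counts, against 0.434% to 0.822% in the other 23, and the 72 oxidative phosphorylation genes summed to 10040 CPM against 5880 and 6041 CPM in the other wild-type hippocampus libraries. Its no-feature share was 37.0%, against 48.3% to 55.4% in the other 5 hippocampus libraries. With the no-feature share as a covariate, and this library kept, 47 members were higher in hippocampus, as were 17.8% of all genes. The median was then 0.39. Choroid plexus and ependymal markers summed to 3398 CPM in hippocampus wild type 1 and to 3126 CPM in wild type 3. The ribosomal protein sums of these libraries were 12710 and 6539 CPM. Whether these markers had a part in the values was not tested. The part of the share of reads without a unique alignment in these values was not tested apart from the library.

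Cortex and olfactory bulb differed less from the rest. In wild-type cortex 4 of 76 members were higher and none lower (background 19% of all genes higher and 14.5% lower), with a median of 0.19. They were Rps2 (0.62, SE 0.18), Rpl12 (0.51, SE 0.18), Rps15 (0.46, SE 0.16) and Rpl4 (0.40, SE 0.10), and none had all 3 cortex libraries above all others, as 4.93% of all genes did. Rpl4, whose loop reaches into the peptide exit tunnel, measured 299.6, 319 and 311 CPM in cortex, 403, 327 and 256 in hippocampus, 219, 217 and 227 in olfactory bulb and 184, 176 and 171 in cerebellum. The values of cortex lay above those of olfactory bulb and cerebellum and within those of hippocampus. The count was 33 without hippocampus wild type 1 (20% of all genes) and 31 in the knockout libraries (16.4% of all genes). With the no-feature share as a covariate it was 0, where 14.3% of all genes were higher. In that fit 9 members were lower, as were 8.97% of all genes, and the median was -0.22. Without cortex wild type 2 the count of members higher was 13, beside 3642 of 17427 genes. Without cortex wild type 1 or 3 it was 1, beside 2483 of 17486 and 2506 of 17476 genes. Leaving out cerebellum wild type 2 or 3, hippocampus wild type 2, or any 1 of the 3 olfactory bulb libraries gave 2. Genes higher over the whole table in these fits ran from 2937 of 17454 (cerebellum wild type 2) to 3385 of 17410 (olfactory bulb wild type 1). In the olfactory bulb none of 76 passed in edgeR or DESeq2, beside 35.9% of all genes called in edgeR and 6675 of 16995 in DESeq2. Members with an unadjusted p under 0.05 numbered 0 in edgeR, where 45.1% of all genes had one, and 1 in DESeq2, where 7896 of 16995 had one. The median of the 76 was -0.06, and it was 0.081 with library totals in place of TMM scaling, a change that moved the median of all genes by 0.14. With the no-feature covariate 21 members were higher in the olfactory bulb, where 15.8% of all genes were.

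By mean CPM hippocampus was the highest region for 76 of 77 members in wild type, whereas in knockout it was cortex for 64 of 77. Without hippocampus wild type 1, cortex was the highest region in wild type too, for 51 of 77 members, and hippocampus for 13, so the difference in order between the genotypes rested on that library. Cerebellum was then the lowest for 74. Whether the 3 regions other than cerebellum differ from each other was tested only as each against the mean of the rest.

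Loss of Cdr1as was tested in each region as 3 knockout against 3 wild-type libraries. None of 76 members passed in any region in edgeR or DESeq2, and the background was close to none as well, at 0.00644% of the genes tested in cerebellum, 0.00634% in cortex, 0.0062% in hippocampus and 0.0253% in olfactory bulb. Members with an unadjusted p under 0.05 numbered 0, 0, 0 and 4 in edgeR, beside 1.89%, 5.64%, 4.01% and 2.43% of all genes, in the same order of regions. In DESeq2 they numbered 0, 0, 2 and 5, beside 391 of 15536, 940 of 15777, 554 of 16119 and 462 of 15831 genes. In cortex, knockout and wild-type libraries of the same replicate number deviated together, most in replicates 1 and 2. The cortex fit with the number as a block called none of the members and 0.19% of all genes in edgeR. In that fit 10 members had an unadjusted p under 0.05, as did 13% of all genes. The median log2 differences, knockout minus wild type, were -0.01 in cerebellum, 0.10 in cortex, -0.28 in hippocampus and 0.07 in olfactory bulb. The typical SE of a member was 0.14, 0.18, 0.25 and 0.14 in the same order, so differences of the size of these medians were not detectable for a single gene. In cerebellum, cortex and olfactory bulb 35, 67 and 58 of 76 members lay above 0, against 43.1%, 50.1% and 47.8% of all genes. Leaving out 1 library took the cortex count as low as 33, without cortex wild type 2. The olfactory bulb count went as low as 38, without olfactory bulb knockout 1.

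**Figure D3:**
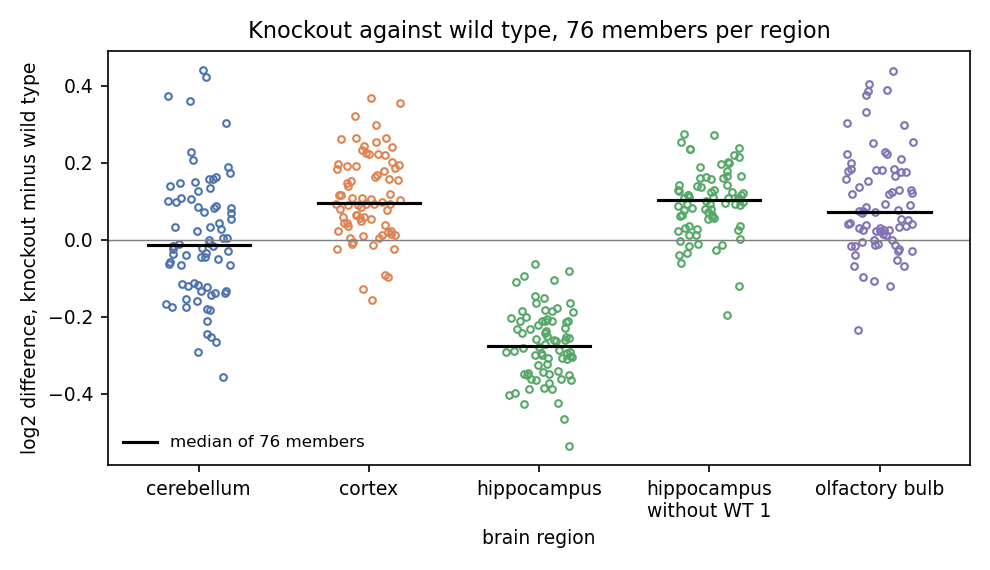
Log2 difference of CPM between Cdr1as knockout and wild type (vertical axis) for 76 members in each region, with a bar at the median, and for the hippocampus also without wild type 1. Points lie on both sides of 0 in cerebellum, cortex and olfactory bulb, with 35, 67 and 58 of them above 0. The hippocampus median moves from -0.28 to 0.10 without wild type 1.

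In the hippocampus 0 of 76 members lay above 0, against 46.2% of all genes, and this turned with 1 library. Without hippocampus wild type 1, 66 of 76 lay above 0 and the median was 0.10. Rpl27a, a large subunit protein with the smallest p there, measured 63.3, 57.9 and 72.1 CPM in knockout and 121, 84.7 and 62.8 CPM in wild type. These groups overlapped, the difference was -0.47 (SE 0.21, adjusted p = 0.953, edgeR), and it was -0.19 (SE 0.14) without that library. Rplp2 had the lowest difference of the 76 there, at -0.54 (SE 0.27, adjusted p = 0.953, edgeR). The 9 choroid plexus and ependymal markers summed to 169 to 3398 CPM in wild type and 181 to 231 CPM in knockout hippocampus, and their part in these differences was not tested.

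In the olfactory bulb 7 members were higher in all 3 knockout libraries than in any wild-type library, namely Rpl19, Rpl21, Rpl37a, Rpl39, Rps14, Rps27 and Rps7, or 9.21% of 76 against 6.25% of all genes. Rps27 measured 88.2, 92.1 and 77.6 CPM in knockout and 63.7, 69.9 and 61.6 CPM in wild type. The difference was 0.39 (SE 0.12) with an unadjusted p of 0.00902 and an adjusted p of 0.992 in edgeR. Rps14, a small subunit protein of the platform, measured 115, 124 and 108 CPM against 77, 90.2 and 97.6 CPM, a difference of 0.38 (SE 0.12, adjusted p = 0.992, edgeR). Rps7 and Rpl19 gave 0.39 and 0.25. In this region the second knockout and the first wild-type library were of low complexity, and without them 18 members had an unadjusted p under 0.05, as did 7.83% of all genes, and the median was 0.18, still with none past the adjusted threshold. In the cerebellum Rpl23a alone had no overlap (6.95% of all genes were lower in this way), with 33.6, 41.1 and 39.8 CPM in knockout and 42.2, 41.8 and 43.3 CPM in wild type, a difference of -0.14 (SE 0.11).

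The knockout difference of Rplp0 was -0.02, 0.04, -0.28 and 0.07 and that of Rpsa -0.01, 0.05, -0.21 and 0.02 on the log2 scale in cerebellum, cortex, hippocampus and olfactory bulb, each with SE of 0.10 to 0.26. The difference in knockout effect between regions was tested over all 24 libraries. None of 77 members passed in edgeR (background 0.00568%), none had an unadjusted p under 0.05 where 1.48% of all genes did, and the smallest unadjusted p was 0.0803, for Rpl27a.

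The level of the members was related to the share of reads in no feature. The slope was fitted within the 8 groups over all 24 libraries, in log2 CPM per 10 percentage points of the share. At an adjusted p under 0.05 in edgeR, 48 of 77 members had a lower level at a higher share and none a higher one, where 8.08% of all genes had a lower and 8.38% a higher level. The median slope was -0.24, beside -0.01 over all genes, and 1 of the 77 slopes was above 0, against 47.6% over all genes. Rplp0 had the smallest p, with a slope of -0.32 (SE 0.04, adjusted p = 1.531e-05, edgeR). Rpl18 had -0.32 (SE 0.05), and Rps16, Rpl10 and Rpl37a had -0.30. At the other end Rpl23 had a slope of 0.0014 (SE 0.06) and Rps24 one of -0.08 (SE 0.07).

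Cortex shows the relation in single libraries, since its share ranged most. In cortex wild type 1, 3 and 2, with 20.3%, 34.9% and 56.2% of reads in no feature, Rplp0 measured 128, 119 and 57.7 CPM. In cortex knockout 1, 3 and 2, with 30.5%, 33.6% and 53.7%, it measured 117, 112 and 89.1 CPM. In both genotypes the library with the highest share had the lowest value. Rps24 measured 136, 155 and 190 CPM in the same 3 wild-type libraries, the opposite order. In cortex knockout 1, 3 and 2 it measured 192, 157 and 133 CPM, so in knockout its value fell as the share rose.

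**Figure D4:**
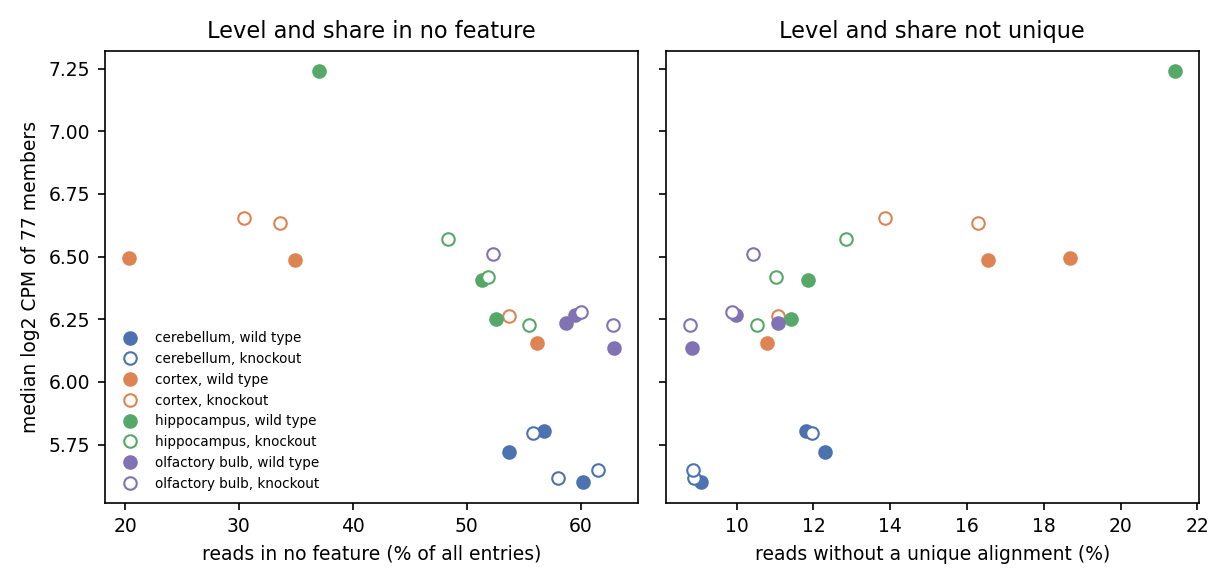
Median log2 CPM of the 77 members (vertical axis) against the percentage of a table's reads in no feature (left) and without a unique alignment (right), 1 point per library, coloured by region, filled for wild type and open for knockout. Pearson's r between level and no-feature share within a region runs from -0.991 to -0.642, and cerebellum lies lowest at shares of 53.7% to 61.5% that other regions also had.

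Within a region, over 6 libraries, Pearson's r between the members' median log2 CPM and the share was -0.642 in cerebellum, -0.823 in cortex, -0.991 in hippocampus and -0.938 in olfactory bulb, with Spearman's rho of -0.600, -0.829, -0.943 and -0.771. Without the 2 libraries farthest from the median share, r was -0.876, 0.346, -0.921 and -0.368, so that in cortex and olfactory bulb it rested on those libraries. Both quantities come from the same table, whose share without a unique alignment varied as well, from 10.8% to 18.7% in cortex and from 10.5% to 21.4% in hippocampus. With that share in place of the no-feature share, 64 members had a higher level at a higher share (5.66% of all genes), with a median slope of 0.84 per 10 percentage points, and the parts of the 2 shares were not tested apart. Without hippocampus wild type 1, 37 members had a lower level with the no-feature share, as did 7.65% of all genes, and the median slope was -0.17. With the replicate number as a block, 10 did, beside 135 of 17600 genes, and the median was -0.20.

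Other gene lists were fitted in the same way. Of 72 nuclear-encoded oxidative phosphorylation genes 43 had a lower level at a higher no-feature share and none a higher one, with a median slope of -0.19. Atp5a1 and Cox4i1, subunits of ATP synthase and of cytochrome c oxidase, had -0.18 (SE 0.02) and -0.29 (SE 0.04). Of 76 mitochondrial ribosomal protein genes 11 were lower (median -0.13), of 16 translation factors with TOP mRNAs 6 (median -0.12) and of 40 ribosome biogenesis genes 2 (median -0.05). Over all genes 8.08% were lower and 8.38% higher. Cell type markers were lower too, 7 of 9 for astrocytes and 5 of 10 for neurons, but 3 of 10 for microglia and 1 of 9 for oligodendrocytes. The 4 measured long noncoding RNAs that are retained in nuclei, Malat1, Meg3, Neat1 and Snhg11, all had a higher level at a higher share, with slopes of 0.58 to 0.71. Their summed level ran from 5368 CPM in cortex wild type 1 to 40130 CPM in cortex wild type 2, the libraries with the lowest and the highest no-feature share of that region.

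**Figure D5:**
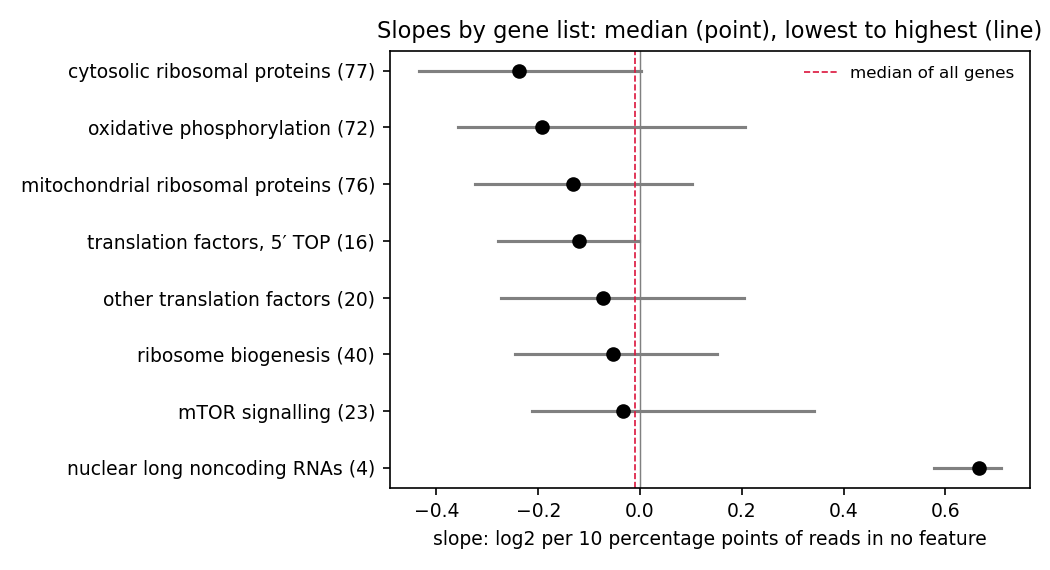
Slope of log2 CPM per 10 percentage points of the no-feature share (horizontal axis) for 8 gene lists, with the number of genes in brackets, as the median (point) and the range from the lowest to the highest gene (line), and the median of all genes as a dashed line. The 77 ribosomal protein genes have a median of -0.24 and the 4 nuclear long noncoding RNAs one of 0.67.

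Within the members, neither length nor sequence uniqueness ordered the cerebellum difference or the slope closely. Over 76 members Spearman's rho of the cerebellum difference was 0.108 with the share of unique 50-base words and 0.129 with transcript length. Over 77 members rho of the slope was -0.074 with uniqueness and -0.073 with length. The cerebellum difference had a rho of -0.385 with the mean level per coding kilobase, the members at higher levels having the larger differences. For the slope that rho was 0.214. The hippocampus difference had a rho of -0.344 with length, -0.173 with uniqueness and 0.302 with the level per coding kilobase. These are descriptions across genes, which are not independent replicates.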

How the data were processed

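Counts of reads per gene were deposited by the authors as 1 table per library, with 37621 gene entries and 5 summary entries. HTSeq 0.6.1p1, STAR 2.5.1b, bcl2fastq 2.17.1.14 and the mm9 build are named in the submitters' processing notes. Their roles, their settings and the strand mode of the counting are not given in the sources used, so reads of a member and of an overlapping or antisense gene cannot be told apart. Per the labels' protocols, TRIzol RNA was depleted of ribosomal RNA with an RNase H method before a stranded kit.

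Summary entries (no feature, ambiguous, not uniquely aligned and others) stayed out of library sizes and tests. Shares of them are percentages of all entries of a table. Symbols came from GENCODE M21, which named 32897 of 37620 identifiers, holding 98.56% of the counts. Lengths are those of the shortest CCDS transcript of a gene, and start windows are from RefSeq GRCm38.p6. CPM use TMM scaling over all 24 libraries. With few reads a level has counting error: a count of 0 allows up to 3 counts, or 0.0985 to 0.58 CPM before TMM scaling, for counting error only.

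Tests were two-sided quasi-likelihood F-tests of edgeR 4.0.16 (limma 3.58.1, R 4.3.3) with TMM scaling, robust dispersion and filterByExpr at a minimum count of 10, fitted over all genes, with Benjamini-Hochberg adjustment and a threshold of 0.05. Wild-type regions were fitted on 12 libraries, knockout against wild type on the 6 of each region, and the interaction and the slope on all 24, the slope with 8 groups as factors. The median level per library used log2 CPM with a prior count of 2. DESeq2 1.42.0, other scalings and filters, a replicate block, covariates and left-out libraries were alternatives. The procedure was tested on simulated data. Members, lists and tests were chosen with earlier results of these data known, and no test over the members as a list was made.

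Named members were, in each comparison, the 6 largest differences in each direction among members past the threshold without overlap (slopes without that condition) or, where fewer than 4 passed, the 4 smallest p-values. To these were added Rplp0, Rplp1, Rplp2, Rpsa, tissue-restricted paralogs with their parents, and the 3 highest and 3 lowest per kilobase. Others named were chosen after their values were seen, and some members are not reported here by name. Deviations from the group means were correlated across genes between knockout and wild-type libraries of the same replicate number. In cortex r was 0.104 to 0.532. Pairing was not clean there, since knockout 3 had r of 0.288 with wild type 1 and 0.104 with wild type 3. In cerebellum r was 0.057 to 0.098, small but above the highest value between unlike numbers, 0.006. It was -0.176 to 0.017 in hippocampus and -0.134 to 0.134 in olfactory bulb. The labels do not say what a number shares.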

Additional observations from a re-analysis of the deposited data

Results flagged for a closer look

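2 entries of the same naming pattern were left out because the annotation calls them pseudogenes, and both held reads. Rps4l, a transcribed processed pseudogene related to Rps4x, had 3612 counts over 23 libraries, with a highest count of 579 in a library. Rpl6l, a processed pseudogene, had 108 counts over 21 libraries, with a highest count of 10. Both lie above the 3 counts that a value of 0 allows, and whether the reads came from these copies or from their parent genes was not tested.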

How the results depend on the processing

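Leaving out 1 library at a time gave 38 to 70 members with any difference between regions, 38 to 72 lower in cerebellum, 1 to 33 higher in cortex, 4 to 64 higher in hippocampus (median 0.17 to 0.71) and 0 to 3 called in olfactory bulb (median -0.13 to 0.059). At the lowest and highest of these counts, 8938 of 17454 and 11432 of 17427 genes had any difference. Of the same numbers, 3189 and 4379 were lower in cerebellum. Higher in cortex were 2483 of 17486 and 3493 of 17473 genes, and in hippocampus 1913 of 17473 and 2281 of 17445. In olfactory bulb 6014 of 17445 genes were called at the highest count. For knockout against wild type the median ran from -0.075 to 0.029 in cerebellum, -0.013 to 0.20 in cortex, -0.46 to 0.10 in hippocampus and -0.0073 to 0.16 in olfactory bulb, with no member called in any of these fits. The count of members higher in cortex was 2 with library totals, 1 without a low-count filter, 2 without the low-complexity libraries and 0 with the no-feature covariate (median -0.22). Over all genes 2523 of 16995, 3204 of 26827, 3385 of 17410 and 2423 of 16995 were higher in the same order. The olfactory bulb median was 0.081 with library totals, and 0.27 with the no-feature covariate, which called 21. In the 12 knockout libraries, an alternative chosen after seeing the data, 31 members were higher in cortex, 4 in hippocampus (median 0.21) and 2 in olfactory bulb (median 0.078). Of all genes 16.4%, 12.1% and 14.7% were higher there in the same order. The knockout median in cerebellum was 0.0035 with library totals, 0.013 without the low-complexity libraries and 0.028 with the no-feature covariate, and in hippocampus it was 0.081 with that covariate. With the share without a unique alignment in place of the no-feature share no member was lower and the median slope was 0.84. The causes of these changes were not tested. Low counts limit Rpl3l, and the spread of 3 libraries limits single-member differences.

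With the replicate block 8 members were higher in cortex, beside 3560 of 16995 genes. With it 10 had a lower level at a higher no-feature share, beside 135 of 17600 genes. Members called for knockout against wild type stayed at 0 in every region with the block. The genes called over the whole table went from 1 to 30 in cortex, from 1 to 6 in hippocampus and from 4 to 11 in olfactory bulb. The block moved no other count of called members by over 1.5 times.

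Among named members, the no-feature covariate turned cortex differences of Rps15 to -0.028 and Rplp2 to -0.50, and olfactory bulb differences of Rpl3 to 0.31 and Rpl10 to 0.49. The share without a unique alignment turned slopes to 1.04 (Rpl18), 1.01 (Rplp0), 1.02 (Rps16), 1.24 (Rpl10), 1.137 (Rpl37a), 0.92 (Rplp1), 1.07 (Rplp2), 0.87 (Rpsa), 0.76 (Rpl3), 0.85 (Rpl39), 0.65 (Rps27) and 0.95 (Rps4x).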

Other observations

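For genes upstream of the ribosomal protein mRNAs, calls between regions are given beside the shares over all genes. Of 23 genes of mTOR signalling and TOP mRNA control, 5 were higher and 5 lower in wild-type cerebellum at an adjusted p under 0.05 in edgeR, beside 22.7% higher and 24.1% lower over all genes. Their median log2 difference was 0.09, where the ribosomal protein genes had -0.67. In cortex 3 were higher and 4 lower (median 0.03), beside 19% and 14.5% of all genes, in hippocampus 2 and 2 (median -0.11), beside 15.3% and 10.6%, and in olfactory bulb 4 and 3 (median 0.05), beside 18.4% and 17.5%. Of 12 p53 target genes, a pathway that responds to defects in ribosome assembly, 3 were higher and 1 lower in cerebellum (median 0.01), 3 and 2 in cortex, 0 and 2 in hippocampus and 2 and 3 in olfactory bulb, to be read against the same shares. None of these 2 lists had a member called in knockout against wild type in any region, and no p53 target was called in the relation to the no-feature share. Of the 23 genes of mTOR signalling and TOP mRNA control, 3 had a higher and 3 a lower level at a higher share. Over all genes these shares were 8.38% and 8.08%.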
